A study of Homo sapiens with 56 samples.

Results

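The genes described here are a fixed list of 44 genes that myeloid cells use as they mature into monocytes and granulocytes: surface receptors, colony-stimulating factor receptors, beta-2 integrins, Fc receptors and their adaptors, subunits of the phagocyte NADPH oxidase, granule proteins and small intracellular proteins. A listed gene counted as measured when its symbol was in the count tables of both cell lines and its mean reached 1 CPM in any of 16 groups. CPM here are counts scaled by library size, comparable for 1 gene across the libraries of a line. The minimum was reached by 39 of the 44, out of 59081 gene symbols common to the tables. All 39 reached the minimum in a vehicle group, so no gene entered through a treated group alone. CD14, CD163, FPR1, C5AR1 and VCAN stayed under it in every group. The list was chosen with earlier results of these data known. It is named for what these genes are known for, and their levels do not by themselves say that cells matured.

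The study treated 2 human acute myeloid leukaemia cell lines with PMR-116 or CX-5461, inhibitors of the polymerase that makes ribosomal RNA precursors, and sequenced their polyadenylated RNA in bulk. Mv4;11 cells and KG-1 cells received either compound at 1 µM for 3 h or 12 h. Each compound at each time had its own vehicle group, in a buffer of citric acid and sodium phosphate, so there were 8 groups per line, with 3 libraries a group for Mv4;11 and 4 for KG-1. All groups grew in RPMI medium with fetal bovine serum, and the labels give no genetic change made by the study to either line. The labels put Mv4;11 in batch 1 and KG-1 in batch 2, so line and batch cannot be told apart in any comparison of levels between the lines. They do not say that replicates came from separate cultures, so p-values measure the spread between these libraries, which may be technical.

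Monocytes and granulocytes arise from a shared progenitor under transcription factors such as PU.1 and the C/EBP family, and the colony-stimulating factors act on that progenitor through their receptors. The primary granule proteases and myeloperoxidase are transcribed most at the promyelocyte stage and are shut down later, whereas integrins, Fc receptors, oxidase subunits and costimulatory molecules accumulate as the cells become phagocytes. AML lines are arrested along this path and carry mixtures of early and late genes.

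To show the DNA at the starts of these genes, the promoters of 4 genes that carry the results below are printed from RefSeq (build GRCh38.p14), 250 bases before to 50 bases after the annotated start, 5′ to 3′ on the strand of the gene. Capitals mark GAGGAA, the core letters bound by PU.1, or its reverse complement TTCCTC. NCF1 (chr7:74773761-74774060, plus strand) and CD86 (chr3:122055112-122055411, plus strand) are among the genes that were higher with both compounds in Mv4;11 at 12 h. PRTN3 (chr19:840749-841048, plus strand) and CTSG (chr14:24576201-24576500, minus strand) are among those that were lower with PMR-116. CD86 has 2 promoters in the table, of which the other, downstream of the printed one, holds 0 matches.
NCF1: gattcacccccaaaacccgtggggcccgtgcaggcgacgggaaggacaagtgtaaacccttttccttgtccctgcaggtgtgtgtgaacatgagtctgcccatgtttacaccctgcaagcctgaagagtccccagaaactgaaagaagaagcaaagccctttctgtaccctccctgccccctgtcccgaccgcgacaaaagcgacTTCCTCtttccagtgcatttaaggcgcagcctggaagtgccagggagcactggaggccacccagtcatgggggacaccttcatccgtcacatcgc
CD86: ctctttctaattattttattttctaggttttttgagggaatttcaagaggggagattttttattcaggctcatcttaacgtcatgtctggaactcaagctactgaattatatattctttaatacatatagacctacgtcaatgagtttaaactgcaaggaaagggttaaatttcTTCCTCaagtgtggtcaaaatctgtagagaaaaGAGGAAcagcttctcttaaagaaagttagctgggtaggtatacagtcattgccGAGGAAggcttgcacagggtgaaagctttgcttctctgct
PRTN3: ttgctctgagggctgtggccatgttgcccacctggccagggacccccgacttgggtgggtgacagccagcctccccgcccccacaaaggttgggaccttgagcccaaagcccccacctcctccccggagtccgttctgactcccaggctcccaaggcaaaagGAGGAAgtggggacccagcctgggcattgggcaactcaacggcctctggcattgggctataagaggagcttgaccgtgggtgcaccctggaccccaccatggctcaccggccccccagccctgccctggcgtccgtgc
CTSG: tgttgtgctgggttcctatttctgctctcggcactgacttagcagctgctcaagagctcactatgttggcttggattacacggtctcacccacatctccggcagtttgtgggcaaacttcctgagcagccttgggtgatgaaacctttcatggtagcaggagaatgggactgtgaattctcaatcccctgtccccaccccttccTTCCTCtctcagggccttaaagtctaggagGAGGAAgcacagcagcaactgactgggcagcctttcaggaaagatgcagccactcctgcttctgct

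Of the 39 measured genes, 32 had 1 or more promoters in the RefSeq table, 43 in all. GAGGAA, searched on both strands, was in 30 of these 43 promoters (69.8%), against 27.9% of all 35116 promoters in the table. By gene, 25 of the 32 had it in any of their promoters (78.1%), against 31.8% of the 27305 gene symbols in the table. It was found for 13 of the 16 genes that were higher with PMR-116 at 12 h in Mv4;11, in 4 of 6 of those that were lower and in 8 of 10 of those not called. These 3 shares lie close together and were not tested against each other. TTGCNNAA, a C/EBP motif counted on its own and free to overlap the other in a promoter, was found for 6 of the 32 genes, against 12.7% of all symbols. By the same split, TTGCNNAA was found for 1 of 16 higher genes, 1 of 6 lower and 4 of 10 not called. These shares were not tested against each other either. A match is a description of the letters and not a measured binding site.

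The libraries held 28751951 to 41542587 estimated counts in Mv4;11 and 31010467 to 72707768 in KG-1, and after the filter on low counts 20495 and 18618 genes were tested. All 39 measured genes were tested in Mv4;11 and 32 in KG-1, where MARCO, LILRB4, TLR2, ELANE, S100A8, MNDA and KLF4 were too low. Replicates of a group correlated at r of 0.980 to 0.988 in Mv4;11 and 0.982 to 0.990 in KG-1, across genes on the log2 scale, and none were duplicates. In Mv4;11, replicate 3 of the 12 h PMR-116 vehicle group stood apart from replicates 1 and 2. Chi-square per degree of freedom, a measure of disagreement beyond counting noise, was 91.2 and 75.5 against them and 8.29 between them. Without replicate 3, 15 measured genes were higher and 10 lower with PMR-116 at 12 h, against 17 and 8 with it. The lines carried distinct identity genes. CD34, a stem and progenitor marker, was at most 1.19 CPM in Mv4;11 and at 1795 to 2487 CPM in KG-1. FLT3, a receptor kinase, was at 288 to 472 CPM in Mv4;11 and 3.43 to 6.49 CPM in KG-1.

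The 2 lines carried different parts of the list. Over all groups, treated ones included, 38 of the 39 genes reached a mean of 1 CPM in some group of Mv4;11, 27 in some group of KG-1 and 26 in both. LYZ, which encodes lysozyme, ranged from 1070.2 to 1484 CPM over the 12 vehicle libraries of Mv4;11 and from 6.18 to 8.62 CPM over the 16 of KG-1. PRTN3, the granule protease proteinase 3, ranged from 616 to 948 CPM in Mv4;11 and was at most 0.331 CPM in KG-1. In the other direction, CD86, a costimulatory ligand for T cells, had a median of 1.03 CPM in Mv4;11 vehicle libraries and 106 CPM in those of KG-1, and ITGAM, the alpha M chain of complement receptor 3, had medians of 3.89 and 87.5 CPM. ITGB2, the beta chain that pairs with it, was similar in range, at 253 to 341 CPM in Mv4;11 and 281 to 369 CPM in KG-1. The tables of the lines were scaled separately and CPM is not per length, so these are levels of the same gene set side by side, with no test.

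In Mv4;11 after 12 h of PMR-116, 5 of 11 surface receptors, all 3 colony-stimulating factor receptors, 2 integrin alpha chains, 4 of 5 Fc receptors and adaptors and the oxidase subunits NCF1 and CYBB were higher. Among the genes that were lower were 4 of 6 granule genes and the Fc receptor FCGR1A. With edgeR's quasi-likelihood test and Benjamini-Hochberg adjustment over all tested genes, 17 of the 39 genes were higher and 8 lower at an adjusted p under 0.05, where 43.2% of all tested genes were called, 20.7% higher and 22.5% lower. The 8 lower genes lay near the share of all genes. Because the list was chosen with earlier results of these data known, an excess over these shares is not independent support. The median log2 fold change was 0.20 over the 39 genes and 0.01 over all tested genes. CX-5461 at the same dose and time had 16 genes higher and 2 lower, where 31.4% of all tested genes were called, 14.8% higher and 16.5% lower, and the medians were 0.26 and 0.04. In bulk RNA, a change in the share of cells of a kind and a change in RNA per cell cannot be told apart.

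**Figure D1:**
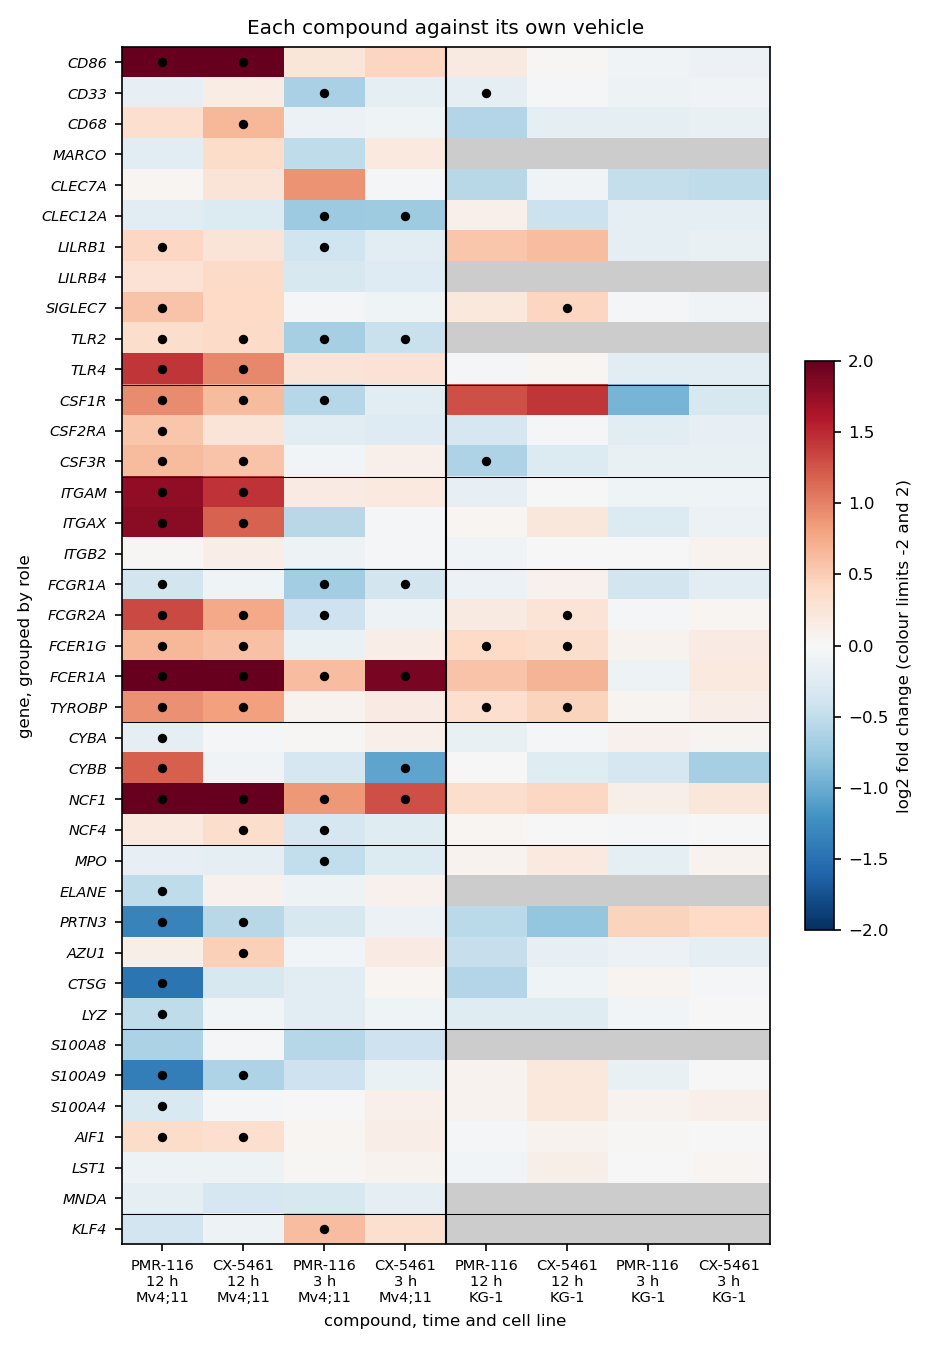
Log2 fold change of each of the 39 measured genes (rows, grouped by role) in the 8 comparisons of a compound with its own vehicle (columns); colour runs from -2 to 2, black dots mark an adjusted p under 0.05 and grey cells were not tested. The Mv4;11 columns at 12 h hold 25 dots for PMR-116 and 18 for CX-5461, and the KG-1 columns at 12 h hold 4 each.

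Of 11 surface receptors and costimulatory genes tested in Mv4;11 at 12 h, 5 were higher with PMR-116 and 4 with CX-5461, and none were lower. CD86 had 14.4, 12.3 and 16.1 CPM with PMR-116, against 1.18, 0.682 and 1.61 CPM in its vehicle. Every treated library was far above every vehicle library, and the log2 fold change was 3.61 ± 0.30 (SE; adjusted p = 7.67e-10). With CX-5461, CD86 had 4.75, 3.84 and 5.26 CPM, against 1.45, 0.863 and 1.00 CPM in vehicle, a log2 fold change of 2.06 ± 0.30 (adjusted p = 9.00e-06). These groups did not overlap either, at a treated mean of 4.61 CPM.

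TLR4, the receptor for bacterial lipopolysaccharide, had 27.7, 24.9 and 26 CPM with PMR-116, against 9.61, 9.84 and 9.83 CPM in vehicle. Under CX-5461 its libraries had 19.2, 17.2 and 19.4 CPM, against 9.37, 10.1 and 9.35 CPM. The replicates were tight and the groups did not overlap, and the log2 fold changes were 1.42 ± 0.17 (adjusted p = 3.20e-07) and 0.96 ± 0.17 (adjusted p = 0.000138). Smaller rises with PMR-116 were called for SIGLEC7 (log2 fold change 0.57) and LILRB1 (0.42), both inhibitory receptors, and for TLR2 (0.35), a receptor for bacterial lipoproteins. CD68, a lysosomal glycoprotein of macrophages, was called with CX-5461 (0.67 ± 0.15) and not with PMR-116 (0.33, adjusted p = 0.0735). CD33, the sialic acid receptor targeted in AML therapy, was not called at 12 h with either compound (-0.16 and 0.15). The TLR2 call with PMR-116 was lost without vehicle replicate 3 (adjusted p = 0.0542), and that of SIGLEC7 without treated replicate 3 or vehicle replicate 1 (up to 0.0535).

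All 3 receptors for colony-stimulating factors were higher with PMR-116 at 12 h in Mv4;11, and CSF1R and CSF3R were also higher with CX-5461. CSF1R, the receptor for macrophage colony-stimulating factor, had 69.7, 60.9 and 68.9 CPM with PMR-116, against 32.1, 35.8 and 35.6 CPM in vehicle. Its log2 fold change was 0.95 ± 0.09 with PMR-116 (adjusted p = 6.47e-09) and 0.63 ± 0.09 with CX-5461. CSF3R, the receptor for granulocyte colony-stimulating factor, changed by 0.63 ± 0.09 with PMR-116 and 0.58 ± 0.09 with CX-5461. CSF2RA, the alpha chain of the receptor for granulocyte-macrophage colony-stimulating factor, changed by 0.55 ± 0.10 with PMR-116 and was not called with CX-5461 (0.25, adjusted p = 0.0665).

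The alpha chains of 2 beta-2 integrins, adhesion and complement receptors of phagocytes, were higher with both compounds while their common beta chain, ITGB2, was not called (log2 fold change 0.03 with PMR-116 and 0.13 with CX-5461). ITGAX, the alpha X chain, had 22.4, 28.7 and 27.7 CPM with PMR-116, against 7.17, 7.76 and 7.70 CPM in vehicle. The CX-5461 libraries had 19.6, 24.5 and 22.6 CPM, against 9.06, 8.47 and 12.0 CPM. Treated and vehicle libraries were apart in both, and the log2 fold changes were 1.80 ± 0.24 (adjusted p = 1.17e-06) and 1.17 ± 0.23 (adjusted p = 0.000388). ITGAM had 14.3, 12.3 and 17.6 CPM with PMR-116, against 3.87, 3.91 and 5.18 CPM in vehicle (1.77 ± 0.35, adjusted p = 0.00022). With CX-5461, ITGAM had 11.2, 9.46 and 12.8 CPM, against 2.03, 2.13 and 7.90 CPM (1.44 ± 0.35, adjusted p = 0.00251). The last of those vehicle libraries, replicate 3, lay well above its group, and without it the log2 fold change was 2.40.

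**Figure D2:**
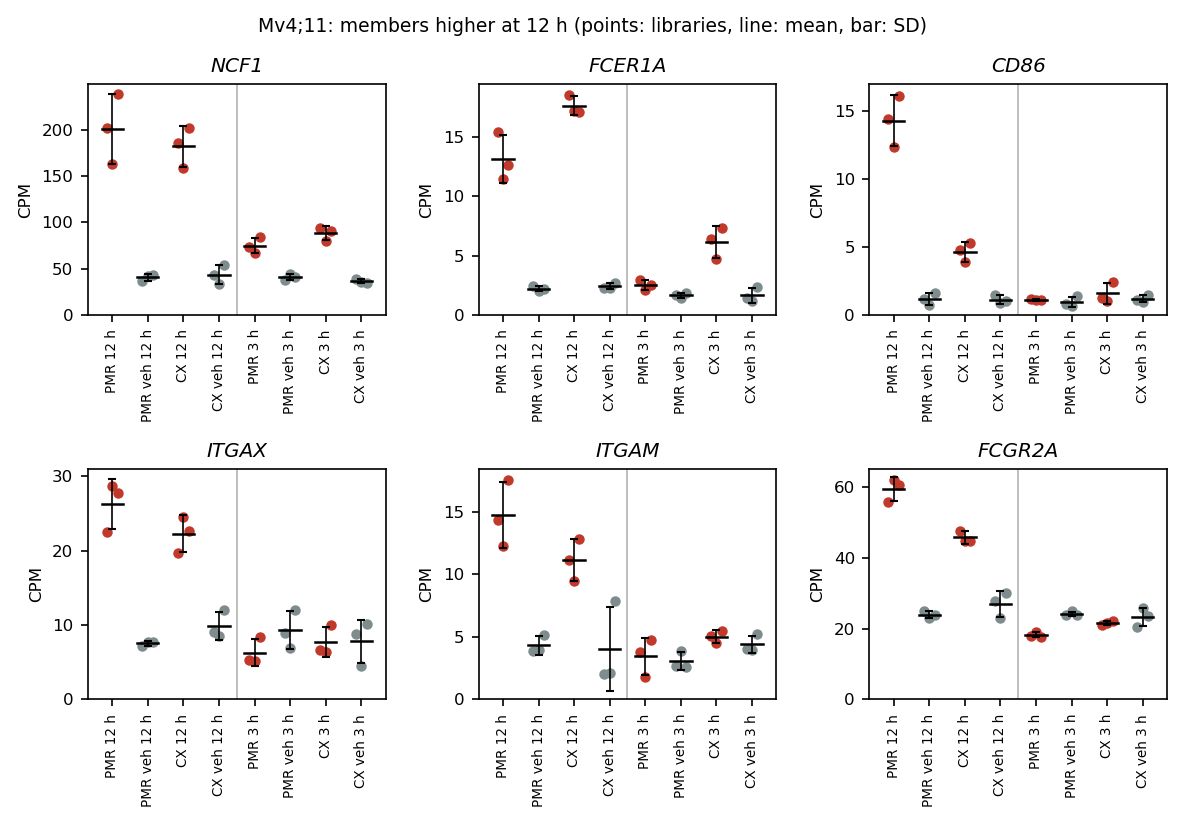
CPM of 6 genes in each Mv4;11 library, with a panel per gene and treated libraries (red) left of their own vehicle (grey) for each compound and time; the line is the group mean and the bar its SD. At 12 h the treated libraries of NCF1, FCER1A, CD86, ITGAX, ITGAM and FCGR2A lay above the vehicle libraries with both compounds.

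Among 5 Fc receptors and adaptors, FCER1A, FCGR2A, FCER1G and TYROBP were higher with each compound at 12 h in Mv4;11, and FCGR1A was lower with PMR-116. FCER1A, the alpha chain of the high-affinity IgE receptor, had 15.4, 11.4 and 12.6 CPM with PMR-116, against 2.44, 2.01 and 2.16 CPM in vehicle. The CX-5461 libraries had 18.6, 17.2 and 17.2 CPM, against 2.28, 2.23 and 2.69 CPM. Every treated library lay above every vehicle library, with log2 fold changes of 2.57 ± 0.20 (adjusted p = 1.90e-10) and 2.87 ± 0.20 (adjusted p = 1.31e-10). FCGR2A, a low-affinity activating IgG receptor, had 55.7, 62.1 and 60.6 CPM with PMR-116, against 24.9, 22.9 and 24 CPM (1.31 ± 0.09, adjusted p = 1.29e-11). With CX-5461 it had 47.7, 44.8 and 44.8 CPM, against 27.9, 23 and 30.05 CPM (0.76 ± 0.09, adjusted p = 2.53e-07).

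The adaptors that carry the signal of such receptors moved in the same direction. TYROBP, an adaptor of activating receptors, had 117, 123 and 138 CPM with PMR-116, against 65.2, 72.8 and 63.3 CPM (0.91 ± 0.11, adjusted p = 3.70e-07). Treated with CX-5461, cells had 118, 123 and 125 CPM, against 66.8, 67.7 and 72.2 CPM (0.83 ± 0.11, adjusted p = 3.43e-06). FCER1G, the common gamma chain of Fc receptors, changed by 0.66 with PMR-116 and 0.58 with CX-5461. FCGR1A, the high-affinity IgG receptor, was the exception, with 29, 23.4 and 26.6 CPM with PMR-116, against 37.3, 33.4 and 31.6 CPM (-0.37 ± 0.11, adjusted p = 0.0102). This fall was not called when libraries were scaled by their totals alone (adjusted p = 0.129) or without vehicle replicate 1 (adjusted p = 0.0660). Near-identical copies limit what can be assigned to single Fc genes: FCGR2B and FCGR2C changed by 1.67 and 2.01 with PMR-116 and by 0.96 and 1.37 with CX-5461, alongside FCGR2A. The copies FCGR1B and FCGR1CP, at low CPM, did not follow FCGR1A, with changes of -0.02 and 0.44 with PMR-116 that were not called. At 3 h FCGR1B was called lower with PMR-116 in Mv4;11 (-0.72) and with PMR-116 and CX-5461 in KG-1 (-0.86 and -0.80).

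Of 4 oxidase subunits, NCF1 had the largest change in Mv4;11 at 12 h. NCF1, the cytosolic organiser of the complex, had 202, 163 and 239 CPM with PMR-116 at 12 h, against 36.4, 41.5 and 43.3 CPM in vehicle (2.32 ± 0.14, adjusted p = 4.89e-12). With CX-5461 it had 186, 159 and 202 CPM, against 43.1, 33.1 and 54.1 CPM (2.06 ± 0.14, adjusted p = 1.39e-10). The groups did not overlap with either compound. NCF1B and NCF1C, copies of the gene that share most of its sequence, changed by 2.52 and 2.71 with PMR-116 and 2.29 and 2.36 with CX-5461, so reads of the 3 loci may have been divided among them. CYBB, the membrane catalytic subunit, changed by 1.19 with PMR-116 on overlapping groups, CYBA, its membrane partner, by -0.20, and NCF4, another cytosolic subunit, by 0.35 with CX-5461. The CYBA call was lost when libraries were scaled by their totals (adjusted p = 0.765), and leaving out any 1 of PMR-116 replicates 1 and 2 and their vehicle replicates 1 and 2 also ended it (up to 0.134).

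Of 6 granule genes, 4 were lower with PMR-116 at 12 h in Mv4;11 and none were higher. CTSG, the granule protease cathepsin G, had 34.9, 29.9 and 32.3 CPM with PMR-116, against 92.7, 81.0 and 92.2 CPM in vehicle (-1.45 ± 0.17, adjusted p = 2.37e-07). PRTN3 had 339, 269 and 450 CPM with PMR-116, against 845, 883 and 948 CPM (-1.34 ± 0.14, adjusted p = 2.41e-08). Neither pair of groups overlapped. ELANE, neutrophil elastase, had 113, 93.6 and 125 CPM, against 156, 160 and 157 CPM (-0.51 ± 0.11, adjusted p = 0.000661). LYZ had 859, 667 and 887 CPM, against 1219, 1070 and 1152 CPM (-0.51 ± 0.11, adjusted p = 0.000372). These were smaller falls on separated groups, and MPO, myeloperoxidase, and AZU1, the antimicrobial azurocidin, were not called (-0.17 and 0.12).

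With CX-5461 at 12 h, 1 of the 6 granule genes was lower and 1 higher. PRTN3 had 708, 593 and 584 CPM with CX-5461, against 943, 930 and 885 CPM (-0.55 ± 0.14, adjusted p = 0.00308). AZU1, which lies next to PRTN3 and ELANE on chromosome 19, had 1164, 1145 and 1094 CPM, against 808, 821 and 827 CPM (0.47 ± 0.08, adjusted p = 3.15e-05). CTSG, ELANE and LYZ were not called with CX-5461 (-0.33, 0.08 and -0.05). Of 6 S100 and other intracellular proteins, 1 was higher and 2 lower with PMR-116, and 1 was higher and 1 lower with CX-5461. S100A9, a calcium-binding alarmin, had 2.59, 2.27 and 1.93 CPM with PMR-116, against 5.77, 6.57 and 5.36 CPM (-1.38 ± 0.22, adjusted p = 1.47e-05). In the CX-5461 groups it had 3.28, 4.18 and 4.07 CPM, against 5.18, 6.28 and 6.24 CPM (-0.62 ± 0.21, adjusted p = 0.0283), a call that was lost when treated replicates 1 or 3, or vehicle replicates 2 or 3, were left out (adjusted p up to 0.0984). S100A4, a motility-related relative, fell by 0.30 with PMR-116, and AIF1, an actin-bundling protein of macrophages, rose by 0.37 with PMR-116 and 0.34 with CX-5461. The AIF1 calls were lost without PMR-116 treated or vehicle replicate 3 (adjusted p up to 0.0722) and when CX-5461 replicates 1 or 3, or its vehicle replicates 1 or 2, were left out (up to 0.106). The 14 genes not called with PMR-116 at 12 h changed by -0.64 to 0.33. They include the pattern receptors MARCO, CLEC7A and CLEC12A, the inhibitory receptor LILRB4, the inflammatory proteins S100A8 and LST1, and the nuclear factors MNDA and KLF4.

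**Figure D3:**
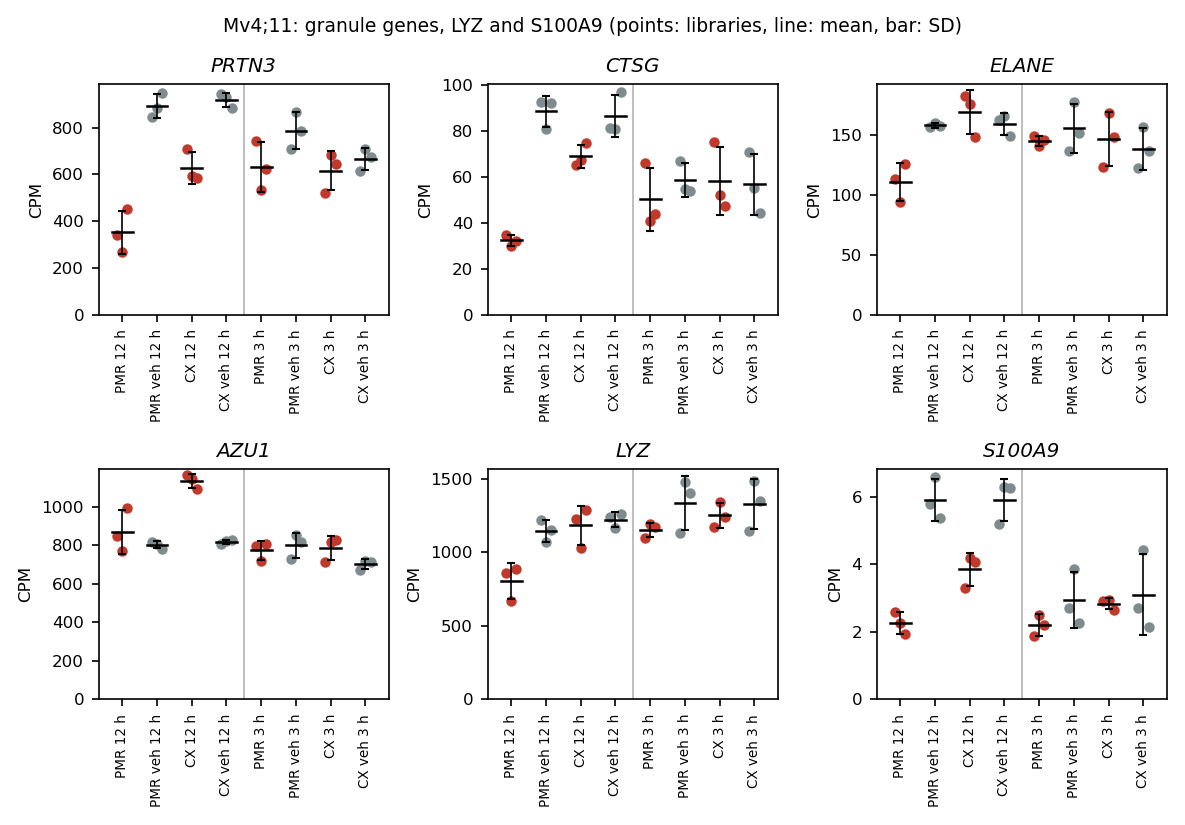
CPM of 6 genes of granules and intracellular proteins in each Mv4;11 library, with treated libraries (red) left of their own vehicle (grey) for each compound and time; the line is the group mean and the bar its SD. At 12 h the PMR-116 libraries of CTSG, PRTN3, ELANE and LYZ lay below their vehicle, and the CX-5461 libraries of AZU1 lay above theirs.

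At 3 h in Mv4;11, more genes of the list were lower than higher with PMR-116. With it, 3 of 39 genes were higher and 9 lower, where 24.1% of all tested genes were called, 11.0% higher and 13.1% lower, with a median log2 fold change of -0.22 over the 39 genes. With CX-5461, 2 were higher and 4 lower, where 11.7% were called, 5.05% higher and 6.61% lower, with a median of -0.03, so these counts lay near the shares of all genes. NCF1 was already higher, with 73.4, 67.1 and 83.9 CPM with PMR-116, against 37.3, 44.1 and 41.1 CPM (0.87 ± 0.14, adjusted p = 6.15e-05). With CX-5461 it had 94.4, 79.8 and 90.8 CPM, against 38.5, 35.5 and 34.7 CPM (1.28 ± 0.14, adjusted p = 7.85e-07). FCER1A had 6.38, 4.71 and 7.36 CPM with CX-5461, against 1.43, 1.17 and 2.35 CPM (1.90 ± 0.21, adjusted p = 5.65e-07). Its change with PMR-116 was 0.61, and KLF4, a transcription factor of monocyte differentiation, also changed by 0.61. Both of those calls were at means under 5 CPM and were each lost in 4 of 6 cases of leaving out a library (adjusted p up to 0.140 and 0.178). Without treated replicate 3, 1 gene was called higher with PMR-116, and without any 1 of the other 5 libraries 2 were.

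Of the 9 genes lower with PMR-116 at 3 h, 7 encode surface receptors. CD33 had 80.9, 69.5 and 69.2 CPM with PMR-116, against 107, 118 and 120 CPM (-0.65 ± 0.07, adjusted p = 1.44e-07). TLR2 had 32.2, 39.1 and 31.9 CPM with PMR-116, against 50.9, 58.6 and 53.5 CPM (-0.66 ± 0.10, adjusted p = 3.83e-05). CSF1R had 23.7, 24.2 and 24.8 CPM with PMR-116, against 34.5, 33.9 and 39.9 CPM (-0.58 ± 0.09, adjusted p = 5.39e-05). In each of these the groups were apart. FCGR1A had 26.4, 29.1 and 25.8 CPM with PMR-116, against 37.2, 50.4 and 44.7 CPM (-0.70 ± 0.11, adjusted p = 6.26e-05). FCGR2A had 18, 19 and 17.6 CPM with PMR-116, against 23.8, 24.9 and 23.8 CPM (-0.41 ± 0.09, adjusted p = 0.00134). MPO, a granule enzyme rather than a receptor, had 7.29, 6.53 and 7.19 CPM, against 10.8, 9.49 and 9.35 CPM (-0.50 ± 0.17, adjusted p = 0.0311).

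With CX-5461 at 3 h, TLR2 and FCGR1A were also lower. TLR2 had 33.9, 45.4 and 43.8 CPM, against 52.7, 59.8 and 55.0 CPM (-0.44 ± 0.10, adjusted p = 0.00442). FCGR1A had 33.1, 37.7 and 37.3 CPM, against 41.6, 49.2 and 49.0 CPM (-0.37 ± 0.11, adjusted p = 0.0328). CLEC12A, an inhibitory lectin receptor, was lower with both compounds at 3 h (-0.72 and -0.71), at means under 5 CPM. With PMR-116, leaving out 1 library ended the call of MPO in 5 of 6 cases, that of NCF4 in 3 and that of CLEC12A in 1, treated replicate 3. With CX-5461 it ended the call of CLEC12A in 4 of 6 cases, that of FCGR1A in 5 and that of CYBB in all 6. The number of genes lower with CX-5461 was 1 without treated replicate 2, treated replicate 3 or vehicle replicate 2, and 2 without treated replicate 1 or vehicle replicate 3.

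The 12 h effect was tested against the 3 h effect in the same model. With PMR-116 in Mv4;11, the 12 h effect was the higher for 18 of 39 genes and the lower for 5, where 27.6% of all tested genes were called, 12.2% higher and 15.4% lower. With CX-5461 it was the higher for 15 and the lower for none, where 16.7% were called, 7.59% higher and 9.15% lower. Among the 39 genes, 21 passed an unadjusted p under 0.05 for CX-5461, and DESeq2 called 16 in either direction. For PMR-116, the effect on CD86 differed by 3.36 ± 0.45 (log2; adjusted p = 3.34e-06), on ITGAX by 2.36 ± 0.34, on FCER1A by 1.96 ± 0.29, on FCGR2A by 1.72 ± 0.12 and on ITGAM by 1.60 ± 0.51. The ITGAM difference was not called without 12 h treated replicate 3, 3 h treated replicate 2 or 3 h vehicle replicate 2 (adjusted p up to 0.0657). The 3 h effect on CD86 was 0.24 and not called, and that on ITGAX was -0.56 and not called. For CX-5461, the differences were 1.63 ± 0.44 for CD86, 1.2 ± 0.34 for ITGAX, 0.97 ± 0.28 for FCER1A, 0.87 ± 0.13 for CSF1R and 0.87 ± 0.12 for FCGR2A. Those of ITGAX and FCER1A were not called without 3 h treated replicate 2 or 3 h vehicle replicate 3 (adjusted p up to 0.0654 and 0.136).

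Some receptors were higher at 12 h and lower at 3 h, each called against its own vehicle, and were singled out after their values were seen. FCGR2A changed by 1.31 at 12 h and -0.41 at 3 h with PMR-116, and CSF1R by 0.95 and -0.58. TLR2 changed by 0.35 and -0.66 with PMR-116 and by 0.39 and -0.44 with CX-5461. LILRB1 changed by 0.42 at 12 h and -0.40 at 3 h with PMR-116, with 25.2, 24.4 and 24.2 CPM at 12 h, against 18.4, 17 and 19.7 CPM in vehicle. At 3 h it had 12.4, 13.3 and 14.6 CPM, against 15.9, 18.9 and 18.6 CPM. In its gene family, LILRA1 (0.54 and -0.28) and LILRB3 (2.23 and -1.11, at low CPM) were also called in both directions. LILRA2 and LILRB2 were called higher at 12 h and not called at 3 h, and the other tested relatives were called at neither time. Reads may have been divided among such relatives, so the turn cannot be assigned to LILRB1 alone. Among the 5 genes whose 12 h effect was lower were CTSG (-1.23 ± 0.24, adjusted p = 0.000412) and PRTN3 (-1.03 ± 0.19, adjusted p = 0.000258).

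**Figure D4:**
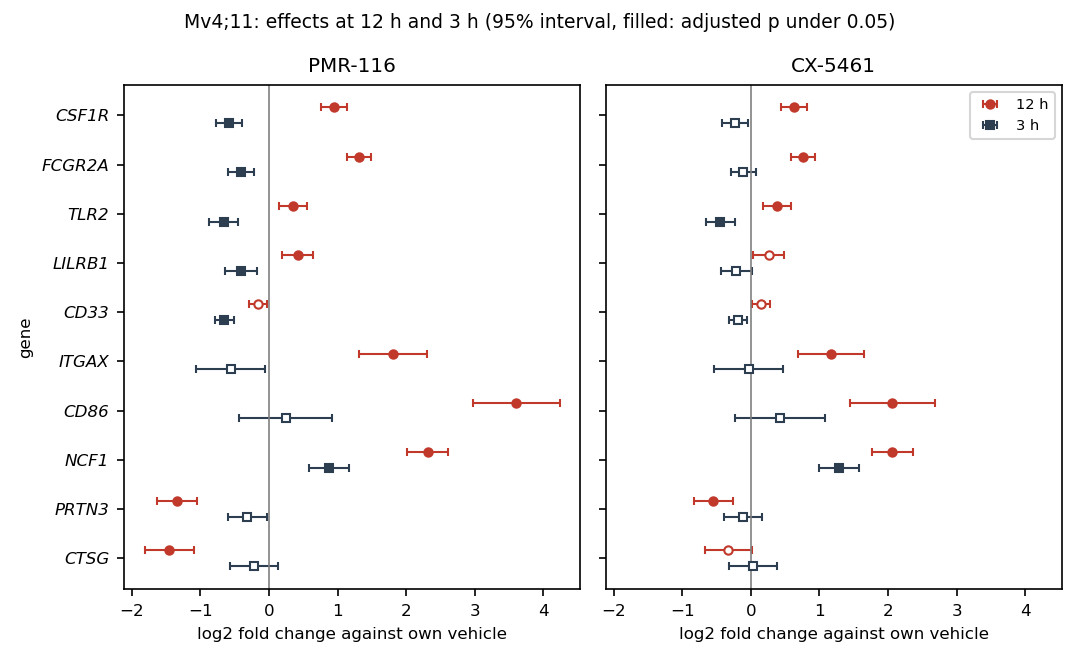
Log2 fold change with its 95% interval at 12 h (red circles) and 3 h (dark squares) in Mv4;11 for 10 genes, with a panel per compound; filled symbols had an adjusted p under 0.05. With PMR-116, CSF1R, FCGR2A, TLR2 and LILRB1 lie right of 0 at 12 h and left of 0 at 3 h.

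Both compounds were given at 1 µM for the same times, each with its own vehicle, so their effects could be compared without shared libraries. Each line gave 2 comparisons, at 12 h and 3 h, with p-values adjusted over all tested genes of each. In Mv4;11 at 12 h the effects differed for 5 of 39 genes, 2 higher and 3 lower with PMR-116, where 5.11% of all tested genes were called, 1.27% higher and 3.84% lower. The PMR-116 effect exceeded that of CX-5461 by 1.54 ± 0.42 for CD86 (95% interval 0.67 to 2.41, adjusted p = 0.0312) and by 0.55 ± 0.12 for FCGR2A (0.30 to 0.80, adjusted p = 0.00737). The difference was -1.13 ± 0.24 for CTSG (interval -1.63 to -0.63, adjusted p = 0.00612), -0.79 ± 0.19 for PRTN3 (adjusted p = 0.0159) and -0.60 ± 0.16 for ELANE (adjusted p = 0.0283). For these 3 granule proteases the PMR-116 effect was thus the lower. The CD86 call was lost in 8 of 12 cases of leaving out a library (adjusted p up to 0.120), that of ELANE in 7 (up to 0.0886) and that of PRTN3 in 1, CX-5461 replicate 1 (0.0551). The count of 5 was 2 without CX-5461 replicate 1 and 3 without its vehicle replicate 1 or without PMR-116 vehicle replicate 1 or 2.

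For the other large rises no difference between the compounds passed the test. The difference was 0.25 for NCF1 (95% interval -0.15 to 0.66), -0.30 for FCER1A (-0.87 to 0.27), 0.63 for ITGAX (-0.06 to 1.31), 0.32 for ITGAM (-0.69 to 1.34) and 0.47 for TLR4 (-0.04 to 0.97). These intervals are wide, and for ITGAX and ITGAM they include differences of more than 1 log2 unit. At 3 h in Mv4;11 the effects differed for 2 genes, where 1.34% of all tested genes were called, 0.610% higher and 0.732% lower. They were CD33 by -0.46 ± 0.09 (adjusted p = 0.0100) and FCER1A by -1.29 ± 0.30 (adjusted p = 0.0273). The PMR-116 effect was the lower in both, and for FCER1A both effects were rises. Leaving out single libraries left 1 of these 2 calls in 7 of 12 cases, and the FCER1A difference had an adjusted p of up to 0.144.

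In KG-1, fitted without the replicate number as a block, few genes of the list were called, and few genes of the whole table were. With that block more genes of the whole table were called at both times. More genes of the list were then called at 12 h with each compound and at 3 h with PMR-116. The counts with the block are given in the last section. At 12 h, 2 of 32 tested genes were higher and 2 lower with PMR-116, where 9.46% of all tested genes were called, 4.73% higher and 4.74% lower. With CX-5461, 4 were higher and none lower, where 2.54% were called, 1.36% higher and 1.18% lower. Of the 32 genes, 12 passed an unadjusted p under 0.05 with CX-5461, and DESeq2 called 6 higher and 1 lower. FCER1G had 54.2, 65.0, 59.4 and 62.9 CPM with PMR-116, against 41.3, 49.9, 45.7 and 47 CPM (0.39 ± 0.08, adjusted p = 0.00222). With CX-5461 it had 51.7, 59.7, 56.6 and 56.8 CPM, against 41.4, 46.6, 44.3 and 43.1 CPM (0.36 ± 0.08, adjusted p = 0.0138). The treated libraries were above all vehicle libraries in both. CSF3R had 44.8, 51.1, 54.4 and 52.7 CPM with PMR-116, against 67.6, 80.2, 85.7 and 76.5 CPM (-0.61 ± 0.12, adjusted p = 0.000735), a fall where Mv4;11 showed a rise.

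TYROBP had 16, 17.2, 14.1 and 15.5 CPM with CX-5461 in KG-1 at 12 h, against 11.3, 12.4, 11.7 and 10.6 CPM (0.45 ± 0.08, adjusted p = 0.00141). SIGLEC7 had 9.08, 9.73, 8.72 and 9.38 CPM, against 7.17, 7.40, 6.05 and 6.74 CPM (0.43 ± 0.10, adjusted p = 0.0155). FCGR2A had 65.4, 69.2, 61.4 and 63.1 CPM, against 55.8, 54.5, 50.3 and 54.5 CPM (0.27 ± 0.07, adjusted p = 0.0215). None of these groups overlapped. Leaving out a library ended the FCER1G call in 2 of 8 cases (CX-5461 replicate 2 and vehicle replicate 1, adjusted p up to 0.0613), that of SIGLEC7 in 2 (CX-5461 replicate 2 and vehicle replicate 3, up to 0.0875) and that of FCGR2A in 5 (CX-5461 replicates 1 and 2 and vehicle replicates 2, 3 and 4, up to 0.107). With only the libraries of the groups compared, FCER1G alone of the 4 stayed called, and the adjusted p of TYROBP was 0.0516. Without CX-5461 replicate 2, 1 of the 4 calls was left, and without its vehicle replicate 3, 2 were left. With PMR-116, TYROBP (0.33) and CD33 (-0.19) were called on overlapping groups. Without PMR-116 replicate 2, 1 gene was called higher, and with treated replicates 3 or 4, or vehicle replicates 1, 2 or 4, left out, 1 gene was called lower.

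At 3 h in KG-1 no gene of the list was called with either compound by edgeR, where 7.33% of all tested genes were called with PMR-116, 3.61% higher and 3.71% lower, and 3.44% with CX-5461, 1.85% higher and 1.58% lower. An unadjusted p under 0.05 was reached by 3 genes with PMR-116 and 1 with CX-5461, and DESeq2 called none. In KG-1 no difference between the compounds passed edgeR's test for any of the 32 genes, where 0.0483% of all tested genes were called at 12 h, 0.0215% higher and 0.0269% lower with PMR-116, and 0.0107% at 3 h, all lower. An unadjusted p under 0.05 was reached by 2 genes at 12 h and none at 3 h, DESeq2 called none, and the differences ranged from -0.49 to 0.53 and from -0.61 to 0.33. No difference between the 12 h and 3 h effects passed it either, where 1.69% of all tested genes were called with PMR-116, 0.918% higher and 0.768% lower, and 0.263% with CX-5461, 0.145% higher and 0.118% lower. There 7 and 5 genes passed an unadjusted p under 0.05, and DESeq2 called none and 1.

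The difference between the lines was tested on the effects, each within its own line. With PMR-116 at 12 h, the effect was higher in Mv4;11 than in KG-1 for 13 of 39 genes and lower for 3, where 25.4% of all genes in the joint fit were called, 12.1% higher and 13.2% lower. With CX-5461, it was higher for 11 and lower for 1, where 16.2% were called, 7.18% higher and 9.04% lower. Over the 39 genes the median difference was 0.29 and 0.21, against 0.06 and 0.07 over all genes. In KG-1 alone 32 of the 39 were tested and the others were too low. These counts and medians thus include genes with no measurable effect in KG-1. For NCF1 the effect of PMR-116 differed by 2.03 ± 0.19 (adjusted p = 4.92e-12) and that of CX-5461 by 1.69 ± 0.19 (adjusted p = 3.02e-09). KG-1 libraries had 2.95, 2.65, 2.21 and 2.74 CPM of NCF1 with PMR-116 at 12 h, against 2.21, 2.00, 1.85 and 2.22 CPM. CD86 differed by 3.48 ± 0.22 with PMR-116 and 2.07 ± 0.24 with CX-5461, and in KG-1 it had 135, 133, 121 and 117 CPM with PMR-116, against 118, 117, 106 and 107 CPM. The Mv4;11 libraries treated with PMR-116 stayed under every vehicle library of KG-1.

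ITGAM differed by 1.99 ± 0.31 with PMR-116 and 1.45 ± 0.31 with CX-5461. In KG-1, ITGAM had 79.6, 72.9, 84.4 and 87.8 CPM with PMR-116, against 85.4, 91.8, 95.4 and 91.1 CPM, and was not called (-0.16). CSF3R differed by 1.30 ± 0.16 with PMR-116 (adjusted p = 2.90e-09), being called in opposite directions in the lines, and was singled out for that after its values were seen. The PMR-116 effects on FCER1A and LILRB4, an inhibitory receptor, also passed the test (2.07 ± 0.48 and 3.46 ± 1.30), but KG-1 vehicle libraries held at most 0.294 CPM of FCER1A and 0.0991 CPM of LILRB4, which gives those differences little base. In Mv4;11 itself LILRB4 changed by 0.30 and was not called (adjusted p = 0.128). Its difference between the lines was lost in 11 of 14 cases of leaving out a library (adjusted p up to 0.132). For CX-5461, FCER1A differed by 2.27 ± 0.50 and ITGAX by 0.97 ± 0.25. Without vehicle replicate 3 of Mv4;11, the ITGAM difference with CX-5461 was 2.46.

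At 3 h the effects differed between the lines for 2 of 39 genes with each compound, where 6.94% of all genes were called with PMR-116, 3.75% higher and 3.19% lower, and 3.07% with CX-5461, 1.57% higher and 1.50% lower. With PMR-116, NCF1 differed by 0.82 ± 0.20 (adjusted p = 0.00573) and CD33 by -0.50 ± 0.09 (adjusted p = 0.000102). With CX-5461, FCER1A differed by 1.73 ± 0.47 (adjusted p = 0.0286) and NCF1 by 1.10 ± 0.19 (adjusted p = 0.000142). The count with PMR-116 was 1 without treated replicate 3 of Mv4;11 and 4 without its treated replicate 2 or its vehicle replicate 1 or 3. That with CX-5461 was 1 in 8 of 14 cases of leaving out a library.

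**Figure D5:**
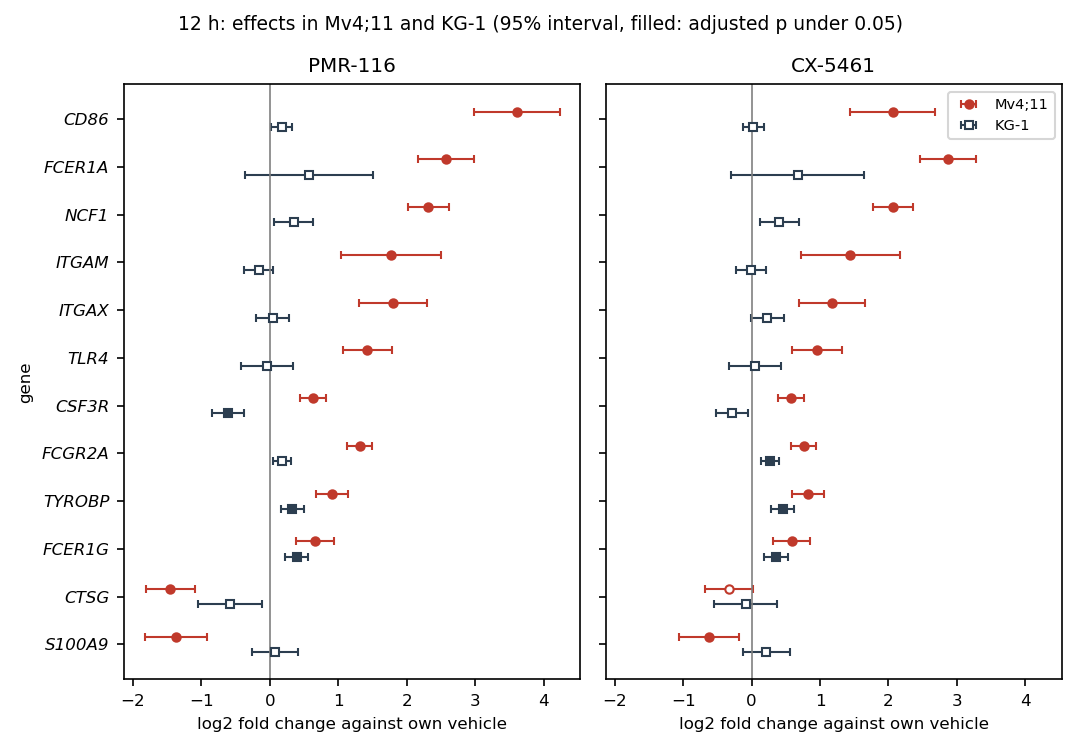
Log2 fold change with its 95% interval at 12 h in Mv4;11 and KG-1 for 12 genes, with a panel per compound; filled symbols had an adjusted p under 0.05. CD86, NCF1, ITGAM and ITGAX lie further right in Mv4;11 than in KG-1, where they were not called. NCF1 changed there by 0.35 with PMR-116 and 0.41 with CX-5461. CSF3R lies on opposite sides of 0 with PMR-116.

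Vehicle groups gave the background. Vehicles of PMR-116 and CX-5461 at the same time and line differed for none of the tested genes of the list by edgeR or DESeq2, where edgeR called 0% of all tested genes, with an unadjusted p under 0.05 for 2 genes in Mv4;11 at 3 h and for none in the other 3 comparisons. Vehicle levels also differed between the times. Between 12 h and 3 h, vehicle libraries of Mv4;11 had 6 genes higher and 3 lower, where 12.9% of all tested genes were called, 5.44% higher and 7.42% lower. Those of KG-1 had 10 higher and 6 lower, where 31.6% were called, 16.2% higher and 15.4% lower. In Mv4;11 the genes with a higher vehicle level at 12 h were S100A9 by 0.97, CTSG by 0.60, KLF4 by 0.53, FCER1A by 0.49, MPO by 0.39 and PRTN3 by 0.32. In KG-1 CTSG was higher by 1.18 and CSF1R, at under 1 CPM, differed by -1.18. The falls of CTSG, PRTN3 and S100A9 with PMR-116 at 12 h were thus measured against vehicles in which each was higher than at 3 h. The rise of FCER1A at 12 h was measured against such vehicles too.

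Other genes of the same pathways were counted over all tested genes of each list, and listed genes too low to test were left out. Over all tested genes in Mv4;11 at 12 h, 20.7% were higher and 22.5% lower with PMR-116, and 14.8% and 16.5% with CX-5461. In Mv4;11 at 12 h, 18 of 38 other monocyte and macrophage genes were higher with PMR-116 and 1 lower, and 16 and 0 with CX-5461. Of 19 other myeloid transcription factors, 10 were higher and 2 lower with PMR-116, and 8 and 1 with CX-5461. Of 3 other oxidase genes, 2 were higher with each, and of 9 other neutrophil genes, 3 were higher and 1 lower with each. CEBPB, a C/EBP factor of monocytes, averaged 47.9 CPM with PMR-116 and 21.5 CPM in vehicle (1.16 ± 0.09). ID2, an inhibitor of helix-loop-helix factors, averaged 77.0 and 25.8 CPM (1.58 ± 0.10), and CD36, a scavenger receptor, 108 and 39.9 CPM (1.43 ± 0.18). With CX-5461, TREM2, a lipid receptor that signals through TYROBP, averaged 22.3 and 7.19 CPM (1.63 ± 0.23).

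At 3 h in Mv4;11 the transcription factors had 6 higher and 8 lower with PMR-116 and 2 higher and 7 lower with CX-5461, and the other monocyte genes 1 higher and 7 lower, and 1 and 2. CCR2, the chemokine receptor of classical monocytes, averaged 87.3 CPM with PMR-116 and 221 CPM in vehicle (-1.34 ± 0.14), and EGR1, an immediate early factor linked to monocyte differentiation, 16.9 and 4.64 CPM (1.85 ± 0.54). CXCR2, a neutrophil chemokine receptor, averaged 39.1 CPM with CX-5461 and 17.9 CPM in vehicle (1.12 ± 0.11). In KG-1 at 12 h, 3 of 18 transcription factors were higher and 2 lower with PMR-116, and 2 of 27 monocyte genes higher and 1 lower. With CX-5461 there, no transcription factor was higher and 1 lower, and 2 monocyte genes and 1 of 10 neutrophil genes were higher. Both times of a line were fitted together, so the genes tested in Mv4;11 at 3 h were those tested at 12 h. Over all tested genes there at 3 h, 11.0% were higher and 13.1% lower with PMR-116, and 5.05% and 6.61% with CX-5461. In KG-1 at 12 h these shares were 4.73% and 4.74% with PMR-116, and 1.36% and 1.18% with CX-5461. The counts of these short lists were not tested against the shares.

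Markers of other cell types were summed per library. In Mv4;11 at 12 h the summed level of 12 fibroblast, endothelial and epithelial markers was 112 to 127 CPM with PMR-116, against 60.4 to 72.4 CPM in vehicle, and 98.8 to 114 CPM with CX-5461, against 64.3 to 79.1 CPM. Most of that was PECAM1, which monocytes also express, at 50.4 to 117 CPM over all Mv4;11 libraries, while KRT8 was at 2.01 to 5.51, KRT18 at 2.76 to 5.55 and VWF at most 1.30 CPM. The other 8 markers of that list were each at most 0.925 CPM, and COL3A1 and LUM were at 0 in every Mv4;11 library. The sum of 15 erythroid and megakaryocyte markers was 33.8 to 36.3 CPM with PMR-116, against 24.8 to 28.4 CPM, and 34.7 to 37.0 CPM with CX-5461, against 26.5 to 28.2 CPM. That of 14 lymphocyte markers was 24.4 to 25.7 CPM, against 22.9 to 26.6 CPM, and 23.2 to 30.1 CPM, against 22.2 to 24.4 CPM. Their part in the changes above was not tested. When libraries were scaled by their totals alone, the median of all genes in Mv4;11 at 12 h was 0.18 with PMR-116 and 0.12 with CX-5461, and 66.2% and 61.2% of called genes were higher, against 47.9% and 47.3% with the scaling used above. The same split was 56.1% against 45.6% with PMR-116 at 3 h in Mv4;11, and in KG-1 at 3 h 38.4% against 49.3% with PMR-116 and 42.4% against 53.9% with CX-5461.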

How the data were processed

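Polyadenylated RNA of 56 libraries was sequenced from a stranded kit, per the labels' protocols. The authors deposited 1 table of estimated counts per line, with a row for each gene symbol. Salmon 1.5.2, DESeq2 and GRCh38.p13 are named in the submitters' processing notes, without their roles. The sources used here do not say how strand was treated in counting. Libraries were matched to table columns by title, and 24 columns with no sample here were not used. Each library has 1 column, and batch follows line. No row lacked a gene name.

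Estimated counts were rounded to whole numbers. Genes were kept by filterByExpr (minimum count 10, minimum total 15), libraries scaled by TMM, and the 8 groups of a line fitted together with edgeR 4.0.16 (R 4.3.3, limma 3.58.1), with its quasi-likelihood test. Line differences came from 1 joint fit of all 16 groups over 23759 genes. P-values were adjusted by Benjamini-Hochberg over all genes of a comparison and called under 0.05. SEs come from the F statistic, and intervals are 95%. CPM are counts over TMM-scaled library sizes. The fit was tested on simulated data first.

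The 44 genes and all lists were chosen with earlier results of these data known. Values in every library were given for genes that were called, averaged at least 5 CPM in 1 of the groups and had groups that did not overlap, up to 6 higher and 6 lower per comparison. For differences of effects, up to 5 genes per comparison were named by size, and other pathway genes were named from a log2 fold change of 1, up to 4 per comparison, of which 1 is not reported here. CD86 with CX-5461 and the genes named as lower-level, turning or opposite fell outside this and were chosen after their values were seen, as were NCF1, CD86 and ITGAM in KG-1, whose libraries are given beside the line differences. Alternatives were DESeq2 1.42.0, other scalings and filters, only the groups compared, the replicate number as a block, and each library left out. Some genes share exon bases with a neighbour on the same strand (CD68, TLR4, FCGR2A and LILRB4), and 9 with 1 on the other strand, so their counts may hold reads of another gene. Replicates were compared across genes and none agreed within counting noise (chi-square per degree of freedom of 7.01 or more).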

Additional observations from a re-analysis of the deposited data

Results flagged for a closer look

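The results listed here passed the test of a difference between the effects of a compound at the 2 times or in the 2 lines, each against its own vehicle. Only the 5 largest per comparison and any genes called in opposite directions are listed. Between the times in Mv4;11 these are 8 of 23 called genes with PMR-116 and 6 of 15 with CX-5461. Between the lines at 12 h they are 6 of 16 and 5 of 12. With PMR-116 in Mv4;11, the 12 h effect exceeded the 3 h effect on the log2 scale by 3.36 for CD86, 2.36 for ITGAX, 1.96 for FCER1A, 1.72 for FCGR2A, 1.60 for ITGAM, 1.52 for CSF1R, 1.01 for TLR2 and 0.82 for LILRB1. FCGR2A, CSF1R, TLR2 and LILRB1 were called higher at 12 h and lower at 3 h. With CX-5461 in Mv4;11, the 12 h effect exceeded the 3 h effect by 1.63 for CD86, 1.2 for ITGAX, 0.97 for FCER1A, 0.87 for CSF1R, 0.87 for FCGR2A and 0.83 for TLR2, of which TLR2 was called in opposite directions.

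Between the lines at 12 h, the PMR-116 effect in Mv4;11 exceeded that in KG-1 by 3.48 for CD86, 3.46 for LILRB4, 2.07 for FCER1A, 2.03 for NCF1, 1.99 for ITGAM and 1.30 for CSF3R, and CSF3R was called higher in Mv4;11 and lower in KG-1. LILRB4 changed by 0.30 in Mv4;11, was not called there and was too low to be tested in KG-1 alone, so its difference has little base. The CX-5461 effect exceeded that in KG-1 by 2.27 for FCER1A, 2.07 for CD86, 1.69 for NCF1, 1.45 for ITGAM and 0.97 for ITGAX. At 3 h the PMR-116 effect differed by 0.82 for NCF1 and -0.50 for CD33, and the CX-5461 effect by 1.73 for FCER1A and 1.10 for NCF1. Line and batch cannot be told apart in these 15 differences, although each effect was taken within its own line. At 3 h, the NCF1 difference with PMR-116 was not called without Mv4;11 treated replicate 3 (adjusted p = 0.0615), and the FCER1A difference with CX-5461 was lost in 8 of 14 cases of leaving out a library (adjusted p up to 0.152).

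The 4 libraries of a group were examined for 1 that lies far from the other 3 in 24 KG-1 groups, those of the called genes and the library totals. None passed Dixon's critical value at the 95% level, which chance passes in about 1 group in 20. Groups of 3, as in Mv4;11, were not examined.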

How the results depend on the processing

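Of 69 called gene values of a compound against its vehicle, 48 kept the call under every alternative that gave an adjusted p. The call was lost under 1 or more for 21, and none reversed. Of 102 called differences of effects and vehicle comparisons, 73 kept the call under every alternative run that gave an adjusted p. The call was lost under 1 or more for 29, and none reversed. Vehicle comparisons were not run with a library left out or with only the groups compared, so they met fewer alternatives. At a minimum of 5 CPM in place of 1, 35 listed genes were measured. The causes of the shifts below were not tested. Where a library was left out, the smaller number of libraries and the absence of that library cannot be told apart.

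Over all tested genes in KG-1, CX-5461 at 12 h called 473 genes, against 803 with DESeq2, 268 with no filter on low counts and 71 with only the libraries of the groups compared. At 3 h it called 640, against 1105, 371 and 332. PMR-116 at 12 h called 1762 genes, against 1152 with no filter and 911 with only the groups compared.

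Among the listed genes, the compounds differed in Mv4;11 at 12 h for 5, against 9 with DESeq2, 8 with a filter at 1 CPM and 9 with no filter, and at 3 h for 2, against 1 with only the groups compared. Between the lines at 3 h, 2 genes differed with CX-5461, against 1 with only the groups compared, and 2 with PMR-116, against 5 with DESeq2 and 4 with a filter at 1 CPM. In KG-1, the CX-5461 effects at 12 h and 3 h differed for 0 genes, against 1 with DESeq2. In KG-1 at 12 h, CX-5461 had 4 genes higher, against 1 with only the groups compared, and 0 lower, against 1 with DESeq2. PMR-116 had 2 higher, against 1 with only the groups compared, and 2 lower, against 4 with DESeq2 and 1 with no filter. At 3 h PMR-116 had 0 lower in KG-1, against 1 with only the groups compared. In Mv4;11, CX-5461 at 12 h had 2 lower, against 1 with scaling by library totals, and the vehicles at 3 h differed for 0 genes, against 1 with no filter.

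Leaving out 1 library at a time gave these ranges over all tested genes. In Mv4;11 the calls ran from 7879 to 8375 with PMR-116 and 5294 to 6040 with CX-5461 at 12 h, and from 3461 to 4710 and 1573 to 1948 at 3 h. In KG-1 they ran from 1191 to 1513 and 288 to 401 at 12 h, and from 901 to 1279 and 362 to 582 at 3 h. For listed genes in Mv4;11, PMR-116 at 12 h had 15 to 18 higher and 6 to 10 lower, CX-5461 15 to 17 and 1 to 2, PMR-116 at 3 h 1 to 2 higher and 7 to 10 lower, and CX-5461 2 to 2 and 1 to 3. In KG-1 at 12 h, PMR-116 had 1 to 3 higher and 1 to 3 lower and CX-5461 1 to 4 higher, and at 3 h PMR-116 had 0 to 1 lower. The 12 h and 3 h effects in Mv4;11 differed for 21 to 24 genes with PMR-116 and 10 to 16 with CX-5461. The compounds differed there for 2 to 7 genes at 12 h and 1 to 2 at 3 h. The lines differed for 12 to 17 and 9 to 13 genes at 12 h with PMR-116 and CX-5461, and for 1 to 4 and 1 to 2 at 3 h. The other counts of 0 stayed at 0 to 0.

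Replicate numbers in the labels are shared between groups, but same-numbered libraries deviated together with r over 0.1 in 1 of 12 pairs in Mv4;11 and 9 of 16 in KG-1, so the numbers were not taken to pair libraries. Against that, 10 of 12 and 13 of 16 libraries correlated best with their own number, which is a hint from the data and not from the design. With the replicate number as a block, all genes called in KG-1 came to 1313 for CX-5461 and 3198 for PMR-116 at 12 h, and 1733 and 2599 at 3 h. The PMR-116 count at 3 h without the block was 1364. Listed genes in KG-1 at 12 h with the replicate block were 7 higher and 2 lower with CX-5461 and 5 higher and 8 lower with PMR-116, and at 3 h 2 were lower with PMR-116. The replicate block gave 4 genes in KG-1 whose PMR-116 effects differed between the times, 1 for CX-5461, and 5 whose PMR-116 effects at 3 h differed between the lines.

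The part of depth in calls at low CPM was not tested. CYBB in Mv4;11 averaged 1.31 CPM with CX-5461 at 3 h, against 2.73 CPM in vehicle, and its call was lost whichever of the 6 libraries was left out (adjusted p up to 0.177).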
